A study of Mus musculus with 50 samples.

Results

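The comparison described here sets distal colons of BALB/c mice (labelled BALBC) given TNBS and A1007 at 30 mpk against colons given TNBS and A1007 at 10 mpk. Its members are the 10 libraries labelled 30 mpk and the 10 labelled 10 mpk, which is 20 of the 50 libraries of the study. The other 30 libraries are 10 of sham mice, 10 of TNBS mice given vehicle and 10 of TNBS mice given A1007 at 90 mpk. They stay out of the fit and are quoted only as levels.

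A1007, named YUQ-A1007 in the study's design text, is the compound under test, and the study's title speaks of an oral agonist of the aryl hydrocarbon receptor (AhR) that is enriched in the gut. Every library of both dose groups carries the BALB/c genotype label, the TNBS treatment and the same single batch label, so the labelled dose is what separates the groups. The labels used here do not spell out mpk and give no age, sex, route or day of sampling. They number the replicates of each dose from 1 to 10 and do not say outright that each came from its own mouse. The p-values therefore set the difference between doses against the spread between these libraries. PolyA RNA of distal colon was sequenced, and per-gene totals ran from 15494095 to 18362878 counts in the 30 mpk libraries and from 14497205 to 19149227 counts in the 10 mpk libraries.

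AhR is a ligand-activated transcription factor that pairs with Arnt on short GCGTG-containing elements and switches on xenobiotic-metabolising genes such as Cyp1a1. In the gut it is known for its roles in epithelial and lymphoid barrier function. TNBS (trinitrobenzene sulfonic acid) is a hapten that, given into the rodent colon, provokes a colitis with neutrophil and macrophage infiltration followed by collagen deposition by fibroblasts, and the study's title names inflammation, barrier and fibrosis as the processes of interest.

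Most of the differences called between the doses were falls at 30 mpk, and the collagen, matrix and macrophage lists held several each. Of 16764 genes tested, 343 fell at 30 mpk and 80 rose at a Benjamini-Hochberg adjusted p under 0.05 (edgeR quasi-likelihood test), which is 2.05% and 0.477% of the genes tested, or 2.52% together. Most changes were small: the median absolute log2 fold change of the 423 called genes was 0.54, and 46 genes (0.274% of those tested) fell by at least 2-fold, whereas only Defa24 (0.00597%) rose that far. In 11 genes every 30 mpk library lay below every 10 mpk library, and in 5 genes every 30 mpk library lay above, which is 0.0656% and 0.0298% of the genes tested. The median log2 fold change of all genes tested was -0.02.

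The 10 mpk group was the more variable one. The SD of log2 CPM between libraries had a median over genes of 0.219 at 30 mpk and 0.328 at 10 mpk, and 13943 genes (83.2%) had the larger SD at 10 mpk. Colon genes were well expressed in all 20 libraries, with Cdx1, an intestinal transcription factor, at 95.95 FPKM or more and Muc2, the main gut mucin, at 312.52 FPKM or more. A few libraries stood apart. The 10 mpk replicate 9 had 21330 CPM summed over 13 mitochondrial genome genes, against 59210 to 99780 CPM in the other 10 mpk libraries. The 10 mpk replicates 3 and 8 lay apart from the other 18 on the first axis of a multidimensional scaling plot. Hoxb13, a distal Hox gene, was lowest in the 10 mpk replicate 8, at 3.96 FPKM. Its median was 69.1 FPKM at 10 mpk, and it ran from 65.2 to 120.8 FPKM at 30 mpk. The 30 mpk replicate 2 held 4102 CPM of pancreatic acinar genes and the 10 mpk replicate 7 held 1111 CPM, and Xist was at 0.1 FPKM in the 30 mpk replicate 1 and at 0.05 FPKM in the 10 mpk replicate 6, against at least 18.32 FPKM elsewhere in these groups. Neither of those libraries held more than 0.02 FPKM of Ddx3y, a Y-linked gene.

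The number of calls depended on single libraries. Leaving out the 10 mpk replicate 9 raised it to 1727, with 868 lower and 859 higher genes. Leaving out the 30 mpk replicate 2, 3, 4, 5, 8 or 9 gave 262, 186, 182, 152, 137 or 270 calls, and leaving out the 10 mpk replicate 1, 4 or 8 gave 232, 244 or 240 calls. The other 10 single omissions gave between 283 and 562. Of the 423 called genes, 67 (61 lower and 6 higher) were called in each of 35 alternative settings, and the account below gives most room to them. They were singled out after their values were seen.

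**Figure D1:**
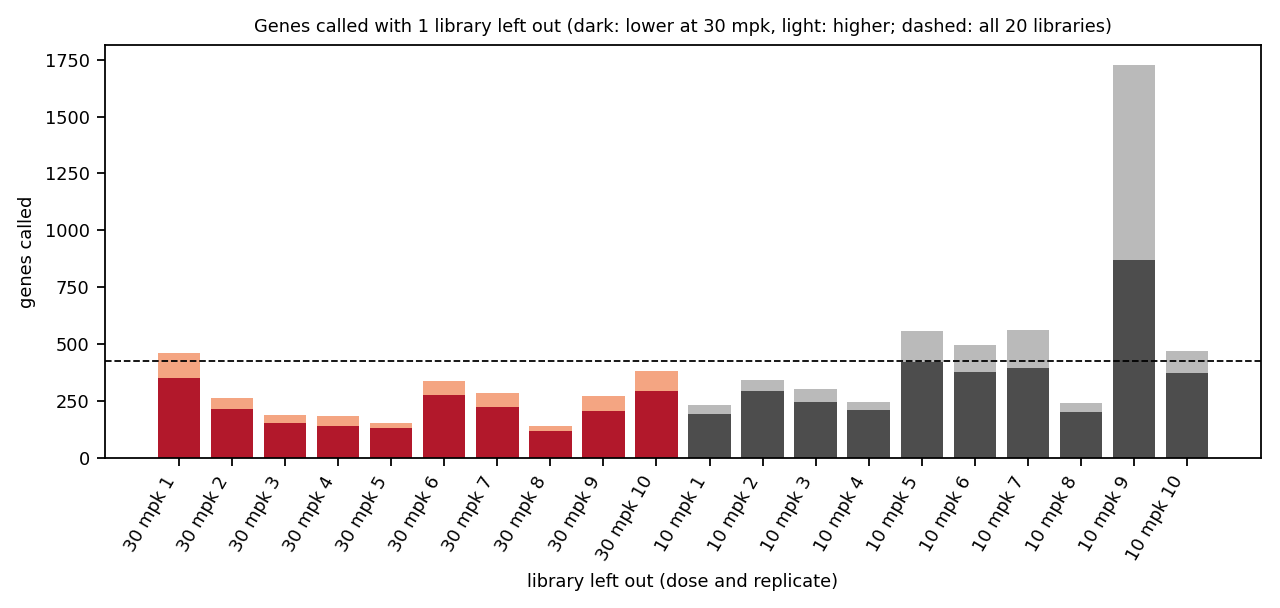
Number of genes called at an adjusted p under 0.05 when 1 library is left out, with the left-out library on the horizontal axis. Dark bars count genes lower at 30 mpk, light bars genes higher at 30 mpk, and the dashed line marks the 423 calls of all 20 libraries; the bar without the 10 mpk replicate 9 reaches 1727.

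Pdgfra and F2r, both receptors, were among the 4 genes with the smallest adjusted p. Pdgfra, the receptor for platelet-derived growth factor that marks intestinal fibroblasts and telocytes, lies on chromosome 5 from 75312953 to 75358876 in GRCm39, the build of the deposited table. It ran from 5.58 to 7.44 FPKM (median 6.54) in the 30 mpk libraries, against 7.58 to 15.74 FPKM (median 11.1) in the 10 mpk libraries. The groups did not overlap, and the log2 fold change was -0.74 ± 0.10 (SE, adjusted p = 0.00102). F2r, the thrombin receptor PAR1 (chromosome 13, 95738311 to 95754995), ran from 12.75 to 15.65 FPKM (median 14.4) at 30 mpk, against 17.05 to 26.76 FPKM (median 21.5) at 10 mpk. All 10 libraries of the higher dose again lay below all of the lower dose, with a log2 fold change of -0.53 ± 0.07 (SE, adjusted p = 0.00102).

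Both promoters are shown with that of Cyp1a1, the classical AhR target and the standard readout of the receptor. Pdgfra and F2r were picked, after values were seen, from the genes whose groups did not overlap. The promoters of Bdkrb2 and Pappa, with the same adjusted p, are not shown. The sequences are the 250 bases before the annotated start, 5′ to 3′ on the gene's strand, from RefSeq on GRCm38.p6, at chr9:57697363-57697612 (plus strand) for Cyp1a1, chr5:75152001-75152250 (plus) for Pdgfra and chr13:95618467-95618716 (minus) for F2r. Capitals mark every match to GCGTG, the AhR core, and to TGANTCA, the AP-1 motif bound by Fos and Jun proteins, each searched on both strands, so that a GCGTG on the other strand is printed as CACGC.
Cyp1a1: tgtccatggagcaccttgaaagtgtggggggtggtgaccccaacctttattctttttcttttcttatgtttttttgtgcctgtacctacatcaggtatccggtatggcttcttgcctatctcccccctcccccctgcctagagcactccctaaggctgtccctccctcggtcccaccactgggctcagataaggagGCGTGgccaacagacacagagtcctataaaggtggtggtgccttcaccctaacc
Pdgfra: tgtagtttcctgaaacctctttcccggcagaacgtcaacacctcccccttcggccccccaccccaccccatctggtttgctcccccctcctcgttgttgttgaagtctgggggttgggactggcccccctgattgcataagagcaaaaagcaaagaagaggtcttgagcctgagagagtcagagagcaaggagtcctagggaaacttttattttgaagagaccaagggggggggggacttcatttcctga
F2r: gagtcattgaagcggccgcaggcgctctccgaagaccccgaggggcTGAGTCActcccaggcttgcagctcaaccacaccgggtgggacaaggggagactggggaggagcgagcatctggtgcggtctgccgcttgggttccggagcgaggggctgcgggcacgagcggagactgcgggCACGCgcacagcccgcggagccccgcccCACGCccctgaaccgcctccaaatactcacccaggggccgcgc
GCGTG stood in 18 of 44 promoters (40.9%) of genes that fell in every setting, in 4 of 7 AhR targets (57.1%) and in 47.3% of the 12043 tested genes with a promoter in the table. TGANTCA stood in 5 of the same 44 promoters (11.4%), in 1 of the 7 AhR targets and in 6.1% of tested genes. Cyp1a1 held 1 GCGTG and no TGANTCA, and F2r held 2 GCGTG, both on the other strand, and 1 TGANTCA. The Pdgfra window held neither, which says only that these letters are absent from these 250 bases.

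Other growth and contraction signals separated the groups in the same way. Bdkrb2, the bradykinin B2 receptor, had 3.37 to 5.13 FPKM (median 4.2) at 30 mpk, against 5.49 to 9.53 FPKM (median 7.02) at 10 mpk, with a log2 fold change of -0.73 (SE 0.10, adjusted p = 0.00102). Pappa, a metalloproteinase that frees insulin-like growth factors from their binding proteins, had 0.56 to 0.85 FPKM (median 0.69) at 30 mpk, against 1.07 to 2.42 FPKM (median 1.32) at 10 mpk, with a log2 fold change of -1.09 (SE 0.15, adjusted p = 0.00102). In each of these genes the lowest 10 mpk library exceeded the highest 30 mpk library. Wnt5a, a non-canonical Wnt ligand made by gut mesenchyme, had 1.75 to 2.68 FPKM at 30 mpk, against 2.71 to 4.33 FPKM at 10 mpk, and fell by 0.64 on the log2 scale (adjusted p = 0.00285). Every 30 mpk library was also lower in Lamb1, Pla2r1, Bicc1, Jdp2 and C1ra, with log2 fold changes between -0.65 and -0.56.

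**Figure D2:**
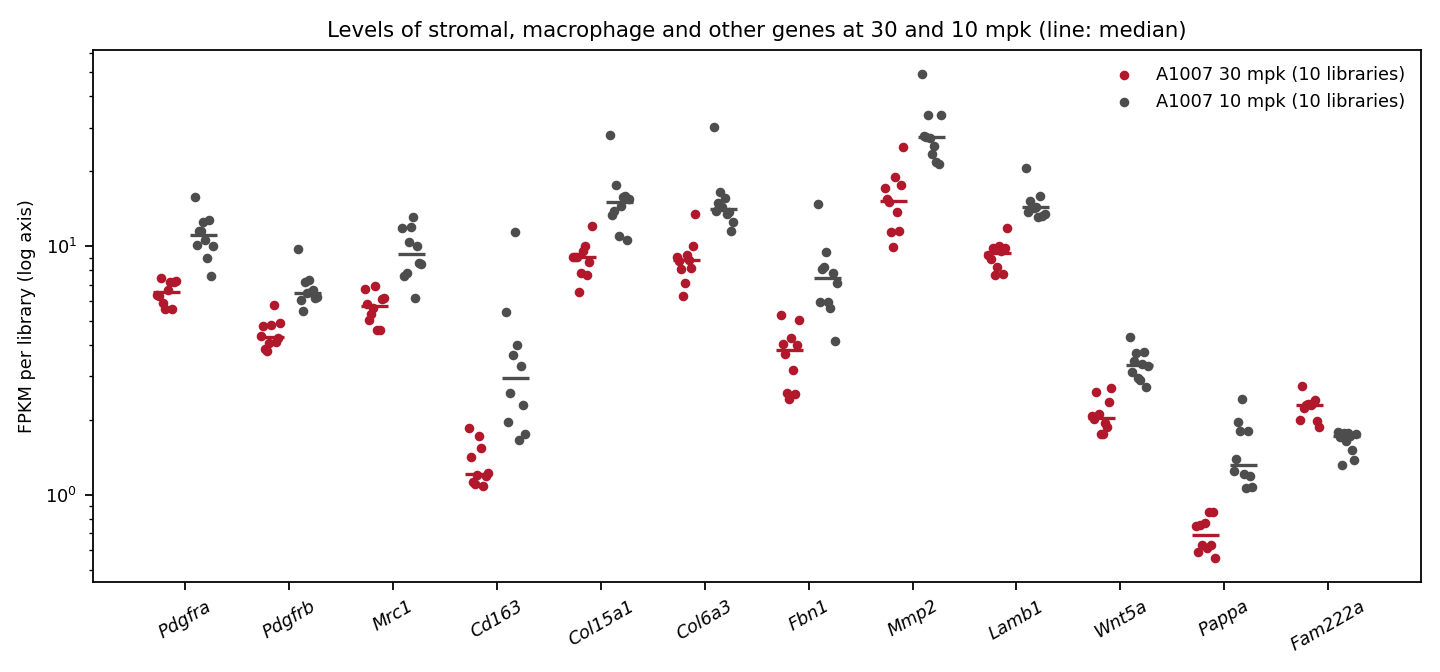
FPKM of 12 genes in each library, with 30 mpk libraries in red on the left and 10 mpk libraries in grey on the right of each gene, on a log axis; short lines are medians. The 30 mpk points of Pdgfra, Lamb1, Wnt5a and Pappa lie below all 10 mpk points, and those of Fam222a lie above.

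Among 12 fibroblast markers, 3 fell at 30 mpk and none rose, against 2.05% of all genes tested that fell. All 12 had a log2 fold change below 0 (median -0.35). The count was 2 whichever 30 mpk library was left out, and between 2 and 4 over all single omissions. Pdgfrb, the receptor of pericytes and fibroblasts, had 3.8 to 5.81 FPKM (median 4.33) at 30 mpk, against 5.5 to 9.75 FPKM (median 6.5) at 10 mpk (log2 fold change -0.57, adjusted p = 0.0044). Gli1, a hedgehog-responsive transcription factor of mesenchymal niche cells, averaged 1.23 ± 0.136 FPKM at 30 mpk and 1.79 ± 0.443 FPKM at 10 mpk (SD, n = 10 each; adjusted p = 0.0418), a call held in 8 of the 35 settings. The summed fibroblast markers ran from 777 to 1166 CPM at 30 mpk and from 1018 to 1936 CPM at 10 mpk, so the groups overlapped. In bulk tissue, fewer cells of a type and less RNA per cell cannot be told apart.

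Collagens were the list with the most calls. Of 16 collagen genes, 14 fell and none rose, against 2.05% of all genes tested, and the list's median log2 fold change was -0.77. The wider family of 37 tested collagen chains, assembled after values were seen, moved less. In it 17 chains fell (45.9%) and none rose, 34 lay below 0 and 3 above, and the median was -0.53. Summed collagen counts ran from 2438 to 5655 CPM (median 3452) at 30 mpk, against 4588 to 13280 CPM (median 5318) at 10 mpk. The groups overlapped through the 30 mpk replicate 10, and the highest sum belonged to the 10 mpk replicate 1. The count of collagens that fell was 8 without the 30 mpk replicate 3, 4, 5 or 8 and 12 without the 10 mpk replicate 1, and all 16 were below 0 in each of the 35 settings.

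The fibrillar collagens that form scar tissue were among them. Col1a1, the chief chain of type I collagen, had 27.45 to 82.02 FPKM (median 44.6) at 30 mpk, against 63.62 to 285.8 FPKM (median 76.2) at 10 mpk, with a log2 fold change of -1.10 (SE 0.26, adjusted p = 0.0285). Its partner Col1a2 fell by 0.84 (adjusted p = 0.0282) and Col3a1, of type III collagen, fell by 0.81 (adjusted p = 0.0423) on the log2 scale. Col1a1 kept its call in 29 of 35 settings, Col1a2 in 28 and Col3a1 in 14, so type III collagen was near the threshold. Col5a1, which seeds type I fibrils, kept its call in all 35 and ran from 7.6 to 17.44 FPKM at 30 mpk, against 16.05 to 48.87 FPKM at 10 mpk (log2 fold change -0.96, adjusted p = 0.0143).

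Basement membrane and beaded-filament collagens fell to a like extent. Col6a3, of microfibrillar type VI collagen, had 6.29 to 13.42 FPKM (median 8.78) at 30 mpk, against 11.51 to 30.19 FPKM (median 14.1) at 10 mpk, and Col15a1, a basement membrane collagen, had 6.55 to 12.04 FPKM (median 9.02) at 30 mpk, against 10.64 to 27.89 FPKM (median 15.0) at 10 mpk. Their log2 fold changes were -0.79 (adjusted p = 0.0119) and -0.78 (adjusted p = 0.00901). Both had their highest value in the 10 mpk replicate 1, and both stayed called without it. Col4a1, the main chain of basement membranes, averaged 47.2 ± 11.3 FPKM at 30 mpk and 81.2 ± 26.9 FPKM at 10 mpk (SD, n = 10 each; adjusted p = 0.0183).

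Laminins, the other scaffold of basement membranes, were grouped after their values were seen. Of 11 laminin chains tested, 6 fell (54.5%, against 2.05% of all genes tested), namely Lama1, Lama2, Lama4, Lama5, Lamb1 and Lamc3. All 11 were below 0, with a median log2 fold change of -0.62. Lamb1 had 7.63 to 11.89 FPKM (median 9.4) at 30 mpk, against 13.07 to 20.57 FPKM (median 14.3) at 10 mpk, with no overlap (log2 fold change -0.65, SE 0.09, adjusted p = 0.00104). The number of laminin chains that fell was between 5 and 7 in the settings tried. In the annotation deposited with the table, 26 of 109 tested basement membrane genes (23.9%) and 20 of 82 genes of ECM-receptor interaction (24.4%) fell. No gene of either term rose, and 2.05% of all genes tested fell. Both terms were picked after their counts were seen. Integrin subunits form cell-surface receptors, some for this matrix and some for other ligands. Of 25 tested, 2 fell (8.0%, against 2.05% of all genes tested), Itgam and Itgb5. That count was 0 without the 10 mpk replicate 1 or the 30 mpk replicate 3, 4, 5, 7, 8 or 9, 1 without the 10 mpk replicate 3, 4, 7 or 8 or the 30 mpk replicate 2 or 6, 5 without the 10 mpk replicate 5 and 6 without the 10 mpk replicate 9.

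Non-collagen matrix genes and their regulators moved the same way. In the list of 24 matrix and fibrosis mediators, 8 fell and none rose, against 2.05% of all genes tested that fell. The median log2 fold change was -0.58. Fbn1, the fibrillin of elastic microfibrils, had 2.42 to 5.31 FPKM (median 3.83) at 30 mpk, against 4.15 to 14.82 FPKM (median 7.45) at 10 mpk (log2 fold change -1.03, SE 0.19, adjusted p = 0.0109). Sparc, a collagen-binding matricellular protein, averaged 139 ± 31.3 FPKM at 30 mpk and 233 ± 96.2 FPKM at 10 mpk (SD, n = 10 each; adjusted p = 0.0319). The count of 8 dropped to 2 without the 30 mpk replicate 5 or 8, to 3 without the 30 mpk replicate 3 or 4, to 4 without the 30 mpk replicate 7 and to 5 without the 30 mpk replicate 2 or 9 or the 10 mpk replicate 1, 4 or 8, and it rose to 13 without the 10 mpk replicate 9. Fbn1 and Tgfb3 kept their calls in all 35 settings.

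TGF-beta, which drives fibroblasts to make collagen, and its wider family were represented by some ligands and receptors. Tgfb3 ran from 2.83 to 4.92 FPKM at 30 mpk, against 4.61 to 8.43 FPKM at 10 mpk (log2 fold change -0.59, adjusted p = 0.0137). Inhba, the activin A subunit, had 0.61 to 1.03 FPKM (median 0.89) at 30 mpk, against 0.69 to 3.96 FPKM (median 1.65) at 10 mpk (adjusted p = 0.0233). Tgfbr2, the signalling type II receptor, had 10.75 to 14.74 FPKM at 30 mpk, against 12.87 to 26.06 FPKM at 10 mpk (log2 fold change -0.53, adjusted p = 0.00924). Of the families assembled after values were seen, 3 of 18 ligands fell (16.7%), namely Tgfb3, Inhba and Bmp4. Among 12 receptors 3 fell (25.0%), namely Tgfbr2, Tgfbr3 and Acvrl1. None rose in either family, and 2.05% of all genes tested fell. Tgfb1, Tgfb2 and Tgfbr1 were not called, with log2 fold changes of -0.14, -0.12 and -0.25. Without the 30 mpk replicate 5 or 8, 1 ligand fell.

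Several matrix-degrading enzymes fell too. Of 15 metalloproteinases and inhibitors, 6 fell and none rose (median log2 fold change -0.87), against 2.05% of all genes tested that fell. Mmp2, a gelatinase of fibroblasts, had 9.93 to 24.97 FPKM (median 15.3) at 30 mpk, against 21.36 to 49.12 FPKM (median 27.4) at 10 mpk, and the log2 fold change was -0.87 (SE 0.16, adjusted p = 0.0108) with a call in every setting. The list summed to between 434.7 and 602.4 CPM at 30 mpk and between 661.6 and 1081 CPM at 10 mpk, with no overlap. The stromelysin Mmp10 and the collagenase Mmp13 differed by a larger fold, whose size rested on a few 10 mpk libraries. Mmp10 had a median of 1.53 FPKM and a highest value of 3.71 FPKM at 30 mpk, against a median of 3.54 FPKM and a highest value of 75.12 FPKM at 10 mpk (log2 fold change -2.81, adjusted p = 0.0343), and its call held in 20 of 35 settings. The number of the 15 that fell was 2 without the 30 mpk replicate 3, 4, 5 or 8, 3 without the 30 mpk replicate 7 or the 10 mpk replicate 1, and 10 without the 10 mpk replicate 9.

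**Figure D3:**
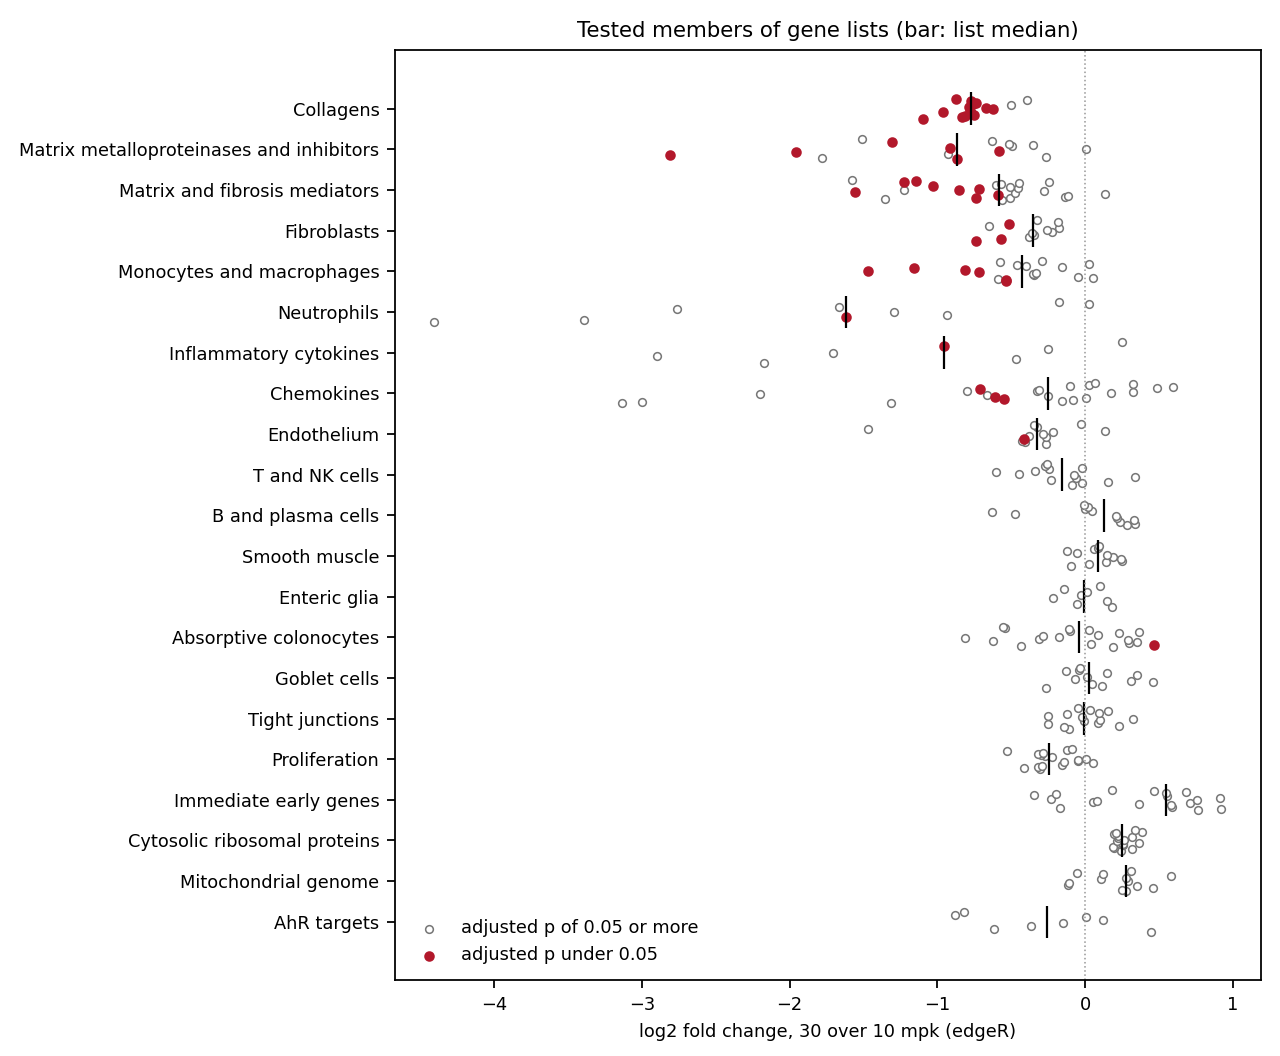
Log2 fold change (30 over 10 mpk) of the tested members of 21 gene lists, 1 point a gene, with red points at an adjusted p under 0.05 and a bar at each list's median. The 16 listed collagens lie wholly below 0 with 14 points red, and the neutrophil, cytokine and chemokine lists spread furthest to the left with few red points.

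Macrophage genes were the second group with several calls. Of 18 monocyte and macrophage genes, 6 fell and none rose, against 2.05% of all genes tested that fell. The median log2 fold change was -0.43, and 16 lay below 0. Mrc1, the mannose receptor of resident macrophages, had 4.62 to 6.89 FPKM (median 5.75) at 30 mpk, against 6.2 to 13.08 FPKM (median 9.31) at 10 mpk, with a log2 fold change of -0.72 (SE 0.12, adjusted p = 0.00515). Cd163, the haemoglobin scavenger receptor, had 1.09 to 1.85 FPKM (median 1.21) at 30 mpk, against 1.67 to 11.38 FPKM (median 2.94) at 10 mpk, with a log2 fold change of -1.47 (SE 0.29, adjusted p = 0.013). Both kept their calls in all 35 settings, and in both the ranges overlapped only at their edges. Without the 30 mpk replicate 8, 3 of the 18 genes fell, and without the 30 mpk replicate 2, 3, 4, 5, 6, 7 or 9, 4 fell. Over all single omissions the count was between 3 and 8.

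Pan-macrophage receptors moved less. Csf1r, the receptor for the macrophage growth factor, ran from 5.68 to 8.5 FPKM at 30 mpk and from 6.46 to 13.5 FPKM at 10 mpk (log2 fold change -0.54, adjusted p = 0.0152). Adgre1, which encodes F4/80, ran from 3.11 to 5.32 FPKM at 30 mpk and from 3.6 to 7.51 FPKM at 10 mpk (log2 fold change -0.54, adjusted p = 0.0183). Each was called in 34 of 35 settings, and the call of Adgre1 was lost without the 30 mpk replicate 8. Stab1, a scavenger receptor, and Mpeg1, a pore-forming phagocyte protein, are not list members and were singled out for holding in every setting, with log2 fold changes of -0.68 and -0.66. The summed list ran from 549.3 to 936.2 CPM (median 719.5) at 30 mpk and from 579 to 1322 CPM (median 917) at 10 mpk, and the lowest sum of each dose belonged to replicate 3.

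Complement and coagulation genes, made by macrophages, fibroblasts and endothelium among other cells, also appeared among the falls. In the deposited annotation 14 of 59 tested genes of the complement and coagulation pathway (23.7%, against 2.05% of all genes tested) fell and none rose. C1ra, a protease that starts the classical cascade, had 7.23 to 12.01 FPKM at 30 mpk, against 11.91 to 23.68 FPKM at 10 mpk (adjusted p = 0.0172); these ranges touch in FPKM, while the scaled counts did not overlap. C3ar1, the receptor for the C3a fragment, had 1.29 to 2.36 FPKM (median 1.57) at 30 mpk, against 1.84 to 3.99 FPKM (median 2.79) at 10 mpk (log2 fold change -0.71, adjusted p = 0.0124). This term was picked after its count was seen. Toll-like receptors were also looked up afterwards, and 3 of 12 fell (25.0%, against 2.05% of all genes tested). They were Tlr7, Tlr8 and Tlr13, which sense RNA within endosomes.

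Neutrophil and cytokine genes showed large fold changes that rested on few libraries. Of 9 tested neutrophil genes of 14 in the list, only Csf3r, the receptor for granulocyte colony-stimulating factor, fell, against 2.05% of all genes tested. The list median was nevertheless -1.62, and 7 of the 9 had an unadjusted p under 0.05 (edgeR), against 18.9% of all genes tested. S100a9, an alarmin of neutrophil granules, ran from 0.58 to 28.31 FPKM (median 2.52) at 30 mpk and from 1.58 to 347.6 FPKM (median 7.75) at 10 mpk, with a log2 fold change of -3.39 (95% confidence interval -5.63 to -1.15, adjusted p = 0.0919). The summed list was at most 127.1 CPM at 30 mpk, whereas the 10 mpk replicates 5 and 8 reached 804.7 and 368 CPM. Without the 10 mpk replicate 3, 2 of the 9 fell, without the 10 mpk replicate 6, 7 or 10 or the 30 mpk replicate 1, 3 fell, and without the 10 mpk replicate 9, 5 fell. None did without the 10 mpk replicate 1, 4, 5 or 8 or the 30 mpk replicate 3, 4, 5, 6, 7, 8 or 9. The median sums were 94.13 CPM at 30 mpk and 125 CPM at 10 mpk.

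Of 7 tested inflammatory cytokines of 16 listed, only Il33, an alarmin of stromal and epithelial cells, fell, against 2.05% of all genes tested. Its median was 3.46 FPKM at 30 mpk, against 6.57 FPKM at 10 mpk (edgeR adjusted p = 0.0487, called in 13 of 35 settings). Il1b, the main inflammasome cytokine, had 1.61 to 7.22 FPKM (median 2.42) at 30 mpk, against 1.24 to 93.03 FPKM (median 6.28) at 10 mpk, and did not pass (adjusted p = 0.0673). Tnf, at medians of 0.765 FPKM at 30 mpk and 1.3 FPKM at 10 mpk, did not pass either (adjusted p = 0.499). Without the 10 mpk replicate 10, 2 cytokines fell, without the 10 mpk replicate 6 or 7, 3 fell, and without the 10 mpk replicate 9, 4 fell. None did without the 10 mpk replicate 1, 2, 4, 5 or 8 or the 30 mpk replicate 3, 4, 5, 6, 7, 8, 9 or 10. The other 9 cytokines were too low to test, among them Il6, Il17a, Ifng and Il10.

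Chemokine calls were few. Of 23 tested, 3 fell and none rose (median log2 fold change -0.25), against 2.05% of all genes tested that fell. Without the 10 mpk replicate 6 the median was 0.02, with 12 of the 23 above 0. The count was 1 without the 30 mpk replicate 8, 5 without the 10 mpk replicate 3 or 7, and 6 lower and 1 higher without the 10 mpk replicate 9. The 3 that fell were Ccl11 (eotaxin, which draws eosinophils), Cxcl12 and Cxcl14, all known as stromal products. Ccl11 had 13.77 to 29.91 FPKM (median 22.9) at 30 mpk, against 24.52 to 57.67 FPKM (median 37.6) at 10 mpk (log2 fold change -0.71, adjusted p = 0.013). The neutrophil attractants Cxcl2 and Cxcl5 had larger log2 fold changes, -3.13 and -3.00, but adjusted p-values of 0.0695 and 0.0619, with highest values of 64.9 FPKM of Cxcl2 in the 10 mpk replicate 8 and 57 FPKM of Cxcl5 in the 10 mpk replicate 5.

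Lymphoid and antigen-presenting lists gave no call. None passed of 14 T and NK cell genes, 12 B and plasma cell genes, 11 dendritic cell and MHC class II genes and 13 interferon response genes (edgeR). In that order 2, 1, 0 and 1 of them had an unadjusted p under 0.05, against 18.9% of all genes tested. The list medians lay between -0.29 and 0.13. Cd74, the MHC class II invariant chain, had 233.1 to 516.1 FPKM (median 391) at 30 mpk and 148.2 to 724.3 FPKM (median 379.2) at 10 mpk, a log2 fold change of 0.03 with a 95% confidence interval of -0.46 to 0.52. Jchain, which joins secreted antibodies of plasma cells, had a median of 266.5 FPKM at 30 mpk and 400.4 FPKM at 10 mpk with wide overlap (interval -1.09 to 0.14). Of 13 endothelial genes only Tek, the angiopoietin receptor, fell, against 2.05% of all genes tested. Tek had 3.17 to 5.01 FPKM at 30 mpk, against 4.25 to 7.57 FPKM at 10 mpk (edgeR adjusted p = 0.0342), a call held in 18 of 35 settings. No endothelial gene fell without the 10 mpk replicate 1, 3, 4 or 8 or the 30 mpk replicate 2, 4, 5, 7, 8, 9 or 10, and 5 did without the 10 mpk replicate 9.

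The largest called fall was that of Arg1, the arginase of alternatively activated and tissue-repair macrophages, at -3.39 (SE 0.80, adjusted p = 0.0306). Arg1 ran from 0.75 to 2.46 FPKM (median 1.24) at 30 mpk and from 0.65 to 73.79 FPKM (median 2.56) at 10 mpk, so the groups overlapped and the mean at 10 mpk was set by a few libraries. Saa3, Ptx3, Lilrb4b, Mmp13 and Csf3r were, with Arg1 and Mmp10, named for the size of their change at 2 FPKM or more, with log2 fold changes of -2.88, -2.88, -1.78, -1.96 and -1.62. Over the 35 settings the calls of these genes held in 9 settings (Saa3) to 22 settings (Arg1), and their highest adjusted p was between 0.125 and 0.522.

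The position of these groups among all 5 groups was described without a test. Median summed collagens were 1896 CPM in sham, 6316 CPM in vehicle, 5318 CPM at 10 mpk, 3452 CPM at 30 mpk and 4122 CPM at 90 mpk. Median summed macrophage genes were 465.4, 1090, 917, 719.5 and 709.1 CPM in the same order, and median summed neutrophil genes were 49.26, 421.4, 125, 94.13 and 68.19 CPM. So the 30 mpk medians of all 3 lists lay below the 10 mpk and vehicle medians and above the sham median, and the collagen median at 90 mpk lay above that at 30 mpk. Of the 343 genes that fell, 198 at 30 mpk and 320 at 10 mpk had a group mean above the sham mean, and the group median was within the range of the sham libraries in 191 genes at 30 mpk and 72 genes at 10 mpk. These genes were chosen for being lower at 30 mpk, so the counts describe them only.

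**Figure D4:**
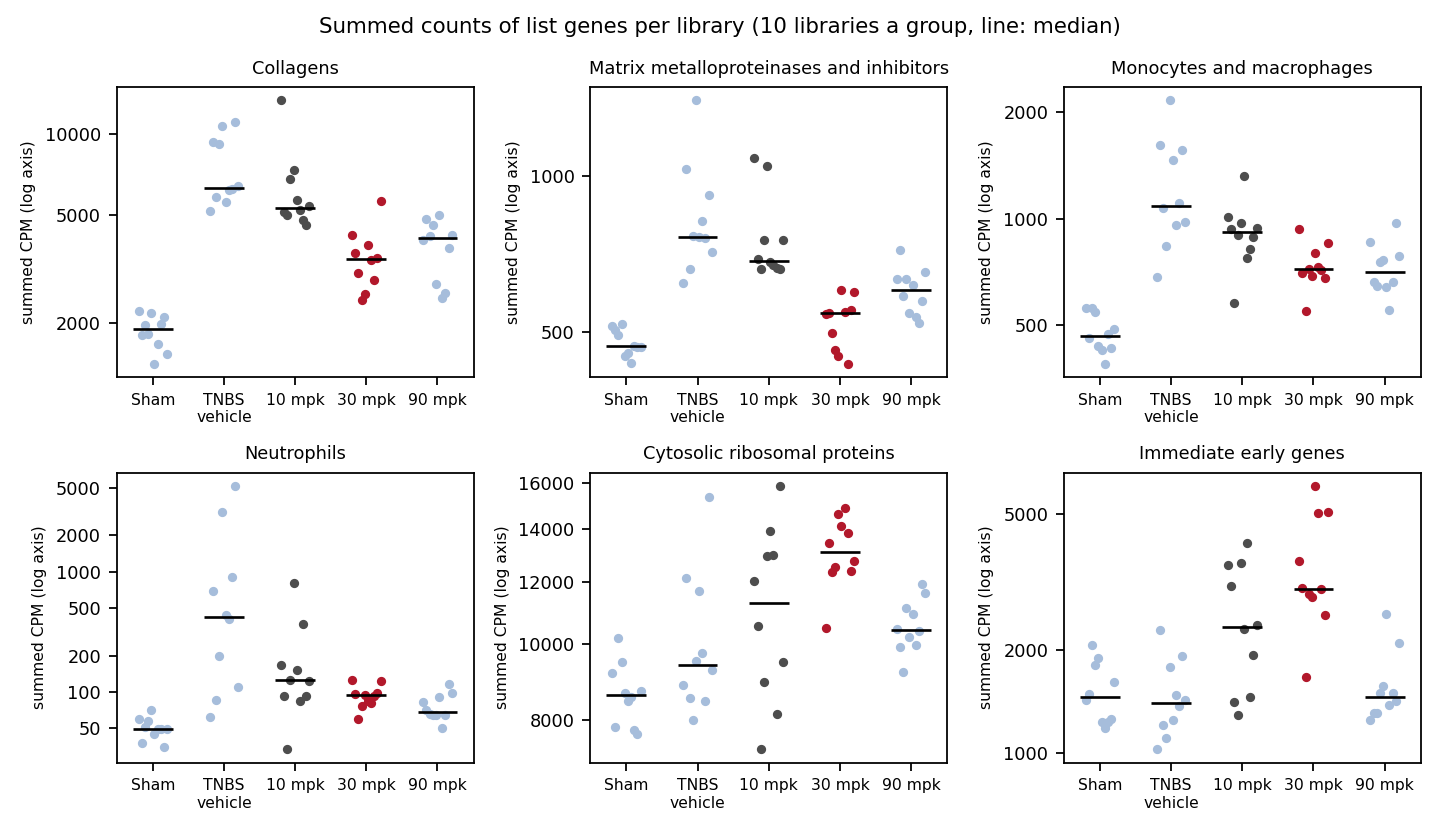
Summed CPM of 6 gene lists in each library of the 5 groups, from sham at the left to 90 mpk at the right, with 30 mpk in red, 10 mpk in dark grey, the other groups in pale blue and lines at medians, on log axes. Collagen sums have medians of 3452 CPM at 30 mpk and 5318 CPM at 10 mpk, and the 10 mpk neutrophil sums reach 804.7 CPM.

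AhR targets, the direct readout of the receptor, gave no called difference between the doses. Of 11 targets listed, 8 were expressed enough to test, and none passed (0 of 8 by edgeR, 3 at an unadjusted p under 0.05, median log2 fold change -0.26), against 18.9% of all genes at an unadjusted p under 0.05. Cyp1a1 had 0.08 to 0.71 FPKM (median 0.33) at 30 mpk and 0.07 to 0.52 FPKM (median 0.2) at 10 mpk, a log2 fold change of 0.45 with a 95% confidence interval of -0.32 to 1.22 (adjusted p = 0.524). The interval includes a 2-fold rise and no change. Cyp1b1, another AhR-induced cytochrome, had medians of 0.245 FPKM at 30 mpk and 0.345 FPKM at 10 mpk (log2 fold change -0.62, adjusted p = 0.213), and Ahrr, the receptor's repressor, had medians of 0.25 FPKM at 30 mpk and 0.31 FPKM at 10 mpk (log2 fold change -0.37, adjusted p = 0.248).

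Tiparp and Nqo1 had the highest levels of the targets tested. Tiparp, a mono-ADP-ribosyltransferase that limits AhR signalling, had 4.36 to 6.53 FPKM at 30 mpk and 2.45 to 7.85 FPKM at 10 mpk (log2 fold change -0.15, interval -0.47 to 0.16). Nqo1, a quinone reductase also under NRF2 control, had 15.2 to 25.21 FPKM at 30 mpk and 9.55 to 26.96 FPKM at 10 mpk (log2 fold change 0.12, interval -0.21 to 0.45). Ugt1a6a and Gsta1, of conjugation reactions, had log2 fold changes of -0.88 and -0.82 with adjusted p-values of 0.247 and 0.412, and Aldh3a1 had 0.01. Cyp1a2, Ugt1a6b and Il22 were too low to test. None of the 7 genes of the receptor complex passed (edgeR, 0 of 7 also at an unadjusted p under 0.05): Ahr itself had 4.04 to 5.84 FPKM at 30 mpk and 4.47 to 7.05 FPKM at 10 mpk (log2 fold change -0.14, interval -0.31 to 0.04).

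**Figure D5:**
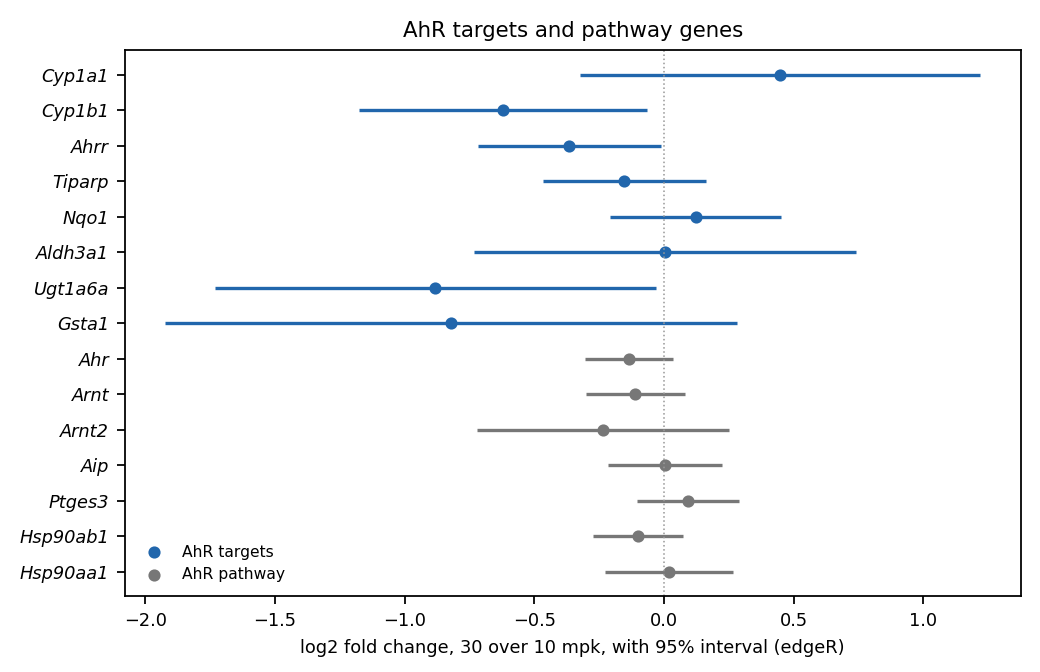
Log2 fold change (30 over 10 mpk) with 95% confidence interval for 8 AhR targets in blue and 7 genes of the receptor complex in grey. Cyp1a1, at the top, spans -0.32 to 1.22, and the receptor gene Ahr spans -0.31 to 0.04.

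In the wider list of 14 xenobiotic and NRF2 genes, 1 rose and 1 fell, against 0.477% and 2.05% of all genes tested. Gstm1, a glutathione transferase, had 98.09 to 146.8 FPKM (median 130) at 30 mpk, against 62.83 to 124.6 FPKM (median 92.4) at 10 mpk (log2 fold change 0.43, adjusted p = 0.0348). Hmox1, the haem-degrading enzyme of macrophages and stressed cells, had 3.58 to 6.55 FPKM (median 5.21) at 30 mpk, against 5.29 to 21.67 FPKM (median 9.36) at 10 mpk (log2 fold change -0.92, adjusted p = 0.0301). Among 20 cytosolic glutathione transferases, looked up afterwards, 3 rose (15.0%, against 0.477% of all genes): Gstm1, Gstm6 and Gstt3. The count was 0 without the 30 mpk replicate 5 or 8, 1 without the 30 mpk replicate 3 and 8 without the 10 mpk replicate 9. Gstm6 and Gstm1 are close paralogs, and how multiply matching reads were counted is not given in the sources used here.

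Epithelial, muscle and nerve lists held few calls. Of 20 absorptive colonocyte genes only Car2, a carbonic anhydrase of colonocytes, rose, against 0.477% of all genes tested. Car2 had 360.6 to 488.4 FPKM (median 434) at 30 mpk, against 187.2 to 391.5 FPKM (median 330) at 10 mpk (log2 fold change 0.47, edgeR adjusted p = 0.039, called in 17 of 35 settings). No gene passed among 12 goblet cell genes, 15 tight junction genes, 12 smooth muscle genes, 11 enteric neuron genes, 8 glial genes or 18 proliferation genes (edgeR). In that order 1, 3, 0, 1, 0 and 0 of them had an unadjusted p under 0.05, against 18.9% of all genes tested. The list medians lay between -0.25 and 0.09. Of 10 enteroendocrine genes only Tph1, the serotonin-synthesis enzyme of enterochromaffin cells, fell, against 2.05% of all genes tested. Tph1 had 1.3 to 2.83 FPKM at 30 mpk, against 2.26 to 4.35 FPKM at 10 mpk (log2 fold change -0.68, edgeR adjusted p = 0.0139), and it fell in all 35 settings. In all, 31 of the 44 lists held no called gene. Of the 526 distinct list genes tested 46 fell and 2 rose, against 2.05% and 0.477% of all genes tested.

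Genes that rose were led by Defa24, an alpha-defensin of Paneth cells. It had 1.71 to 50.97 FPKM (median 11.2) at 30 mpk, against 0.13 to 6.06 FPKM (median 1.02) at 10 mpk, a log2 fold change of 3.05 (SE 0.67, adjusted p = 0.0212) called in 31 of 35 settings. Alpha-defensin genes are near-identical copies, so the level of this one member is uncertain. Paneth cells are normally absent from mouse colon. The median of Defa24 was 0.13 FPKM in sham, 1.45 FPKM in vehicle and 8.21 FPKM at 90 mpk. Pancreatic acinar genes, markers of another gland with secretory granules, also had a higher median sum at 30 mpk. Of 16 acinar genes 7 were tested, all 7 were above 0 and none passed (edgeR; 2 at an unadjusted p under 0.05, against 18.9% of all genes tested). The acinar sums ran from 189.3 to 4102 CPM (median 302.6) at 30 mpk and from 32.5 to 1111 CPM (median 153.7) at 10 mpk. The acinar median log2 fold change was 1.14, and between 0.19 and 1.54 with 1 library left out. Defa24 and the acinar sum were both lowest in the 30 mpk replicate 1 and the 10 mpk replicate 3. At 10 mpk both were highest in replicate 7, whereas at 30 mpk the acinar sum was highest in replicate 2 and Defa24 in replicate 5. Defa24 stayed called with the 30 mpk replicate 2 and the 10 mpk replicate 7 left out together, the libraries with the highest acinar sum of each dose. The part of the acinar genes in the rise of Defa24 was not tested.

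The remaining rises were small. Fam222a had 1.88 to 2.75 FPKM (median 2.3) at 30 mpk, against 1.32 to 1.79 FPKM (median 1.72) at 10 mpk, with no overlap (log2 fold change 0.49, SE 0.09, adjusted p = 0.00853). Rbis, a ribosome biogenesis factor, had 32.84 to 39.51 FPKM at 30 mpk, against 25.62 to 32.34 FPKM at 10 mpk, also without overlap (log2 fold change 0.35, adjusted p = 0.005). Crls1, the cardiolipin synthase of mitochondria, averaged 24.9 ± 0.946 FPKM at 30 mpk and 20.8 ± 1.6 FPKM at 10 mpk (SD, n = 10 each; adjusted p = 0.00924). Klk1, tissue kallikrein, was the most abundant of the named rises, with 805.9 to 1576 FPKM at 30 mpk, against 636.2 to 1141 FPKM at 10 mpk (log2 fold change 0.52, adjusted p = 0.0299). Sytl1, a vesicle-docking protein, had 17.1 to 23.01 FPKM at 30 mpk, against 7.72 to 19.95 FPKM at 10 mpk (log2 fold change 0.53, adjusted p = 0.0324).

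Energy and ribosome genes, assembled as families after their values were seen, lay mostly above 0, and 0.477% of all genes tested rose. Of 84 respiratory chain and ATP synthase genes, 4 rose (Atp5j, Atp5c1, Ndufb4 and Cyc1; 4.8%) and 83 had a log2 fold change above 0, with a median of 0.27. Of 79 cytosolic ribosomal protein genes, 2 rose (Rps7 and Rpl31; 2.5%) and all 79 were above 0, with a median of 0.30. Atp5j, a stalk subunit of ATP synthase, had 56.62 to 73.36 FPKM at 30 mpk, against 40.13 to 62.72 FPKM at 10 mpk (log2 fold change 0.37, adjusted p = 0.0183). Both medians were above 0 in every setting, with 78 of 79 ribosomal genes above 0 under quantile normalization or without the 10 mpk replicates 3 and 8, and ribosomal pseudogenes that share reads with these genes make single members uncertain.

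Exon length and 1 library moved with these small rises. Called genes had a median exon length of 2140.5 bases where higher at 30 mpk and 6528 bases where lower, against 4025 bases over all genes tested. With the trend on exon length removed, 293 genes fell and 76 rose, the ribosomal median was 0.21 and the collagen median -0.69. Without the 10 mpk replicate 9, in which the mitochondrial genome sum was lowest, 57 of the respiratory and 26 of the ribosomal genes rose, and without the 10 mpk replicates 3 and 8 together 2 respiratory and 0 ribosomal genes did. Without the 10 mpk replicate 7 the numbers were 10 and 6, without the 10 mpk replicate 6 they were 7 and 5, without the 30 mpk replicate 1 they were 8 and 3, without the 10 mpk replicate 4 or 8 they were 3 and 1, and without the 30 mpk replicate 5 or 8 they were 2 and 1. The part of RNA quality in these values was not tested.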

How the data were processed

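The study measured polyA RNA of mouse distal colon in 5 groups of 10 libraries, and the 30 mpk and 10 mpk libraries were compared, grouped by the treatment label. Per the submitters' processing notes, the authors used cutadapt 1.9.1, HISAT2 2.2.1, HTSeq 0.6.1 and the GRCm39 build. The deposited table gives raw counts per gene and FPKM for 56691 genes, and 99.997% of FPKM values with at least 500 counts fitted the counts, library total and exon length within 1%. How reads matching several genes and strand were handled is not given in the sources used here.

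Counts were tested with edgeR 4.0.16 (R 4.3.3; TMM scaling, filterByExpr with a minimum count of 10, robust quasi-likelihood fit), Benjamini-Hochberg adjusted over 16764 genes and called under 0.05. FPKM, the authors' values, are printed as levels. Groups were called non-overlapping on scaled CPM computed here from the deposited counts. Log2 fold changes are 30 over 10 mpk. The scripts were tested on simulated data. Replicates differed beyond counting noise (median chi-square per degree of freedom 24.68 at 30 mpk and 70.91 at 10 mpk).

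Alternatives were DESeq2 1.42.0, an exact permutation rank-sum test, limma 3.58.1 on log2(FPKM + 0.5), voom with group variances, other scalings and filters, fits with 30 or 40 libraries, the replicate number as a block, each library left out, and 4 added after seeing the data. The labels do not say whether the numbers pair the samples, and the correlations of same-numbered libraries could not settle it. Named genes were all AhR targets, the 8 largest rises and falls among called genes at 2 FPKM or more, and up to 2 per list, apart from a few items that are not reported here. Others were named for holding in every setting, for not overlapping, or as members of a family, and were chosen after their values were seen. Members and lists were chosen with earlier results of these data known. The 44 lists gave no call in 31. Promoters are those of RefSeq on GRCm38.p6, matched by symbol for 12043 tested genes, and no coordinates were converted between builds.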

Additional observations from a re-analysis of the deposited data

Results flagged for a closer look

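A library far from the other 9 of its group was found in 23 of 158 tests of a value in a dose group, 8 at 30 mpk and 15 at 10 mpk (the gap to the nearest library as a share of the group's range, both taken on log2(CPM + 0.5), above Dixon's 95% critical value). For normally distributed values, chance gives about 1 such library in 20 tests. These tests shared the same 20 libraries and related genes, so they were not independent, and the 23 are not separate outliers.

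In the 10 mpk replicate 1, stromal genes were far above the other 10 mpk libraries: Mmp2 at 49.12 FPKM, Col6a3 at 30.19 FPKM, Col15a1 at 27.89 FPKM, Tgfb3 at 8.43 FPKM, Pdgfrb at 9.75 FPKM and the collagen sum at 13280 CPM. The 10 mpk replicate 5 held Mmp13 at 31.97 FPKM, against 1.99 to 5.84 FPKM in the other 10 mpk libraries. The 10 mpk replicate 6 held Gzma, a granzyme of cytotoxic lymphocytes, at 24.56 FPKM and Xist at 0.05 FPKM.

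The 10 mpk replicate 9 was low in mt-Co1, at 8717 FPKM, and in the mitochondrial genome sum, at 21330 CPM, and high in Hsp90ab1, at 932.1 FPKM, and Cldn7, at 430.5 FPKM. In the 10 mpk replicate 10, Ptgs1 was low at 8.4 FPKM. The 10 mpk replicate 3 was low in Tnfsf13os, at 2.86 FPKM.

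The 30 mpk replicate 1 was low in Mcpt1, a mucosal mast cell protease, at 21.06 FPKM, in Ccl11 at 13.77 FPKM, Xist at 0.1 FPKM, Ckm at 3.98 FPKM, Rpl31 at 308.1 FPKM and the ribosomal protein sum at 10470 CPM. The 30 mpk replicate 10 was low in Lrig1, at 16.15 FPKM. The 30 mpk replicate 2 was high in the pancreatic acinar sum, at 4102 CPM.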

How the results depend on the processing

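No named call reversed in any of the 35 settings, and all 423 called genes kept their sign in each, apart from genes a stricter filter removed and 1 gene without the 10 mpk replicates 3 and 8. The numbers changed. The 423 changed genes (343 lower, 80 higher, 48 of them list members) became 943 (665, 278, 76) with DESeq2, 173 (141, 32, 25) with no filter on low counts and 1070 (736, 334, 86) with 30 A1007 libraries in the fit. The exact rank-sum test gave 202 lower genes and 27 list members, and quantile normalization 228 lower and 134 higher, which moved the share of calls that were higher to 37.0%, against 18.9% with TMM. The share was 29.5% with DESeq2, 29.1% with the rank-sum test, 31.2% with 30 libraries and 49.7% without the 10 mpk replicate 9. With the replicate block the counts were 134 (116 lower, 18 higher, 21 list members). Same-numbered libraries correlated between -0.2 and 0.53, 4 of 10 above 0.1, and 2 of 10 correlated best with their own number. Such correlations cannot tell whether same-numbered libraries shared a litter or day, and the labels do not say. Leaving out single libraries gave 137 to 1727 changed genes, 117 to 868 lower, 20 to 859 higher and 19 to 91 list members. Of alternatives chosen after seeing the data, leaving out the 10 mpk replicates 3 and 8 gave 223 genes (201 lower, 22 higher), and leaving out the 2 libraries low in Xist gave 174 higher genes. Spread between libraries, wider at 10 mpk, limits the small effects that can be called. Causes of these shifts were not tested.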

Other observations

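Immediate early genes, which respond within minutes to stress and handling, spread widely in both groups. Of 19 tested, none passed (edgeR; 6 at an unadjusted p under 0.05, against 18.9% of all genes tested), with a median log2 fold change of 0.55. Fos had 70.11 to 431 FPKM (median 196) at 30 mpk and 41.1 to 268.2 FPKM (median 110) at 10 mpk (adjusted p = 0.256). Their sums had medians of 1458 CPM in sham, 1398 CPM in vehicle, 2336 CPM at 10 mpk, 3027 CPM at 30 mpk and 1455 CPM at 90 mpk.

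Mast cell and eosinophil genes held no call among 10 tested (edgeR; 2 at an unadjusted p under 0.05, against 18.9% of all genes tested), although all 10 were below 0. Mcpt1 had 21.06 to 150.2 FPKM (median 106.5) at 30 mpk and 6.09 to 885.9 FPKM (median 72.6) at 10 mpk, so its mean was higher at 10 mpk and its median higher at 30 mpk. The highest value belonged to the 10 mpk replicate 6. Wnt2b, a Wnt ligand of the stem cell niche, fell at 30 mpk to a median of 1.05 FPKM, against 2.48 FPKM at 10 mpk (log2 fold change -1.05, adjusted p = 0.00285), with medians of 2.51 FPKM in sham, 2.12 FPKM in vehicle and 1.99 FPKM at 90 mpk.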
